A study of Mus musculus with 8 samples.

Results

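The genotype by LPS interaction asks, gene by gene, whether lipopolysaccharide (LPS) moved expression by the same amount in 2 genotypes of mouse macrophages. It was computed as the LPS effect in Bcl6 knockout cells minus the LPS effect in wild-type cells, on the log2 scale. A positive value means that LPS raised a gene more, or lowered it less, in the labelled knockout than in wild type. A negative value means the opposite, and a difference of 1 is a 2-fold gap between the fold changes. The probes were those with a detection p-value under 0.01 on all 8 arrays, 10438 of 45281 on the array, or 23.1%. These probes read 6495 of the 19053 genes named on the array. They were selected on the detection p-value alone, which sets a probe's signal against the negative controls of its own array. The rule leaves out genes that are at background on even 1 array.

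Primary bone marrow-derived macrophages were labelled as coming from male mice, 10 weeks old, on the C57Bl6/J background that both genotypes share. The groups were Bcl6 knockout cells stimulated with LPS, unstimulated Bcl6 knockout cells, wild-type cells stimulated with LPS and unstimulated wild-type cells. Each group had 2 single-colour Illumina arrays, named as technical replicates, so every p-value below measures only the spread between arrays and not that between mice or cultures. The dose of LPS, its duration, the allele behind the knockout and the number of mice behind each RNA sample are not stated in the labels. As these are bulk samples, fewer cells of a type and less RNA per cell cannot be told apart.

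LPS, a component of the outer membrane of Gram-negative bacteria, is sensed by Toll-like receptor 4 on macrophages. Its signal runs through the adaptors MyD88 and Trif to NF-kappaB, to MAP kinases that act on AP-1 factors, and to interferon regulatory factors. Bcl6 is a zinc-finger protein with a BTB domain that binds DNA and represses transcription by recruiting corepressors. It is best known from germinal-centre B cells, and in macrophages it is known as a brake on inflammatory genes.

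Arrays of the same group correlated at 0.994 to 0.995 over these probes, and arrays of different groups at 0.896 to 0.960. The median raw intensity lay between 112.1 and 130.2. The number of probes detected at p under 0.01 ran between 11857 and 13209 per array. Of 12 macrophage markers, 11 were detected on all 8 arrays and none was called for the difference, while Cd68 had no probe detected on all 8. The summed signal of these 11 was 140587.2 and 127506.1 in labelled-knockout cells with LPS and 106834.0 and 108522.8 without it. In wild-type cells it was 142880.1 and 160524.8 with LPS and 137892.6 and 134601.2 without it. Of 12 granulocyte markers, 6 were detected on all 8 arrays, and 2 of these, Lcn2 and S100a9, were called for a positive difference. Among all genes measured, 1.05% were called for a positive difference and 1.22% for a negative one. The 6 were S100a8, S100a9, Ngp, Ltf, Camp and Lcn2. The summed signal of all 6 was 12826.1 and 13638.7 in labelled-knockout cells with LPS and 8944.4 and 9850.1 without it, against 22295.1 and 22555.4 in wild-type cells with LPS and 23884.7 and 26665.1 without it. The groups did not overlap on this sum. The part of granulocyte RNA in the differences below was not tested. Marker lists of B cells, T cells, NK cells, dendritic cells, fibroblasts, erythroid and endothelial cells had 0 genes detected on all 8 arrays, and so did mast cells.

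The targeted gene went against its label. The Bcl6 probe read 9.92 and 9.93 in labelled-knockout cells with LPS and 12.60 and 12.33 in unstimulated labelled-knockout cells, against 10.75 and 10.99 in wild-type cells with LPS and 10.95 and 10.92 in unstimulated wild-type cells, in log2 signal after background correction and quantile normalization, the scale of every array value below. The unstimulated labelled knockout was the highest group and the LPS-treated labelled knockout the lowest, with all 4 wild-type arrays between them. No source used here says where this probe lies relative to the deleted part of the gene, so it does not check the deletion. For this reason the genotype is called the labelled knockout, and every direction below rests on that label. The LPS effect on Bcl6 was -2.54 ± 0.13 in the labelled knockout and -0.07 ± 0.13 in wild type (log2 fold, SE of the fit, n = 2 arrays per group, as throughout). The difference, -2.47 ± 0.19 (adjusted p = 0.000381), was the most negative of any gene.

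Bcl6 and Upp1 mark the negative and the positive end of the interaction, and their promoters are shown for that reason. Each is the RefSeq window of GRCm38.p6 that runs 250 bases before and 50 bases after an annotated start, written 5′ to 3′ on the gene's strand. The Upp1 window is chr11:9117758-9118057 on the plus strand, and its capitals mark the 1 match to the AP-1 motif TGANTCA at bases 206 to 212. The Bcl6 window is chr16:23988803-23989102 on the minus strand and held none of the 4 motifs searched.
Upp1: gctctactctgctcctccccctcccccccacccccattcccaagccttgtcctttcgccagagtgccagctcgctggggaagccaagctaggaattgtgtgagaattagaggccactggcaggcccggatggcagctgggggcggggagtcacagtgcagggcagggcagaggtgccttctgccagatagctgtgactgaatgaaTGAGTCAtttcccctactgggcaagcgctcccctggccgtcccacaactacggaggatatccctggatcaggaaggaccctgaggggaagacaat
Bcl6: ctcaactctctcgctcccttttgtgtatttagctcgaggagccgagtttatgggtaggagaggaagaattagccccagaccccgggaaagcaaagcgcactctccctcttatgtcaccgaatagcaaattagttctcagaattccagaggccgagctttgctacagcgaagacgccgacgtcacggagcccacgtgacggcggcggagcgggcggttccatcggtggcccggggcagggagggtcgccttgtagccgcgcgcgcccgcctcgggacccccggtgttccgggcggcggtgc

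The 4 motifs were searched on both strands of the first listed promoter of each gene. The AP-1 motif TGANTCA was in 5 of 59 promoters of genes with a called positive difference (8.47%) and in 4 of 65 with a negative one (6.15%), against 7.93% of all promoters and 4.48% of those of the genes measured. The NF-kappaB motif GGGANNTTCC was in 1 of 59 promoters (1.69%) on the positive side and 0 on the negative side, against 1.43% of all promoters and 1.51% of those of genes measured. The interferon-stimulated response element GAAANNGAAA was in 2 of 59 (3.39%) and 2 of 65 (3.08%), against 3.49% of all and 3.12% of those of genes measured. The Bcl6 motif TTCCTNGAA was in 0 promoters of either side, against 1.61% of all and 1.04% of those of genes measured, at which fewer than 1 match would fall on either side. These are matches of letters in a short window and say nothing about binding.

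A probe was called where the Benjamini-Hochberg adjusted p of limma's moderated test was under 0.05 and the difference was at least 1 in size. Among the 10438 probes 105 were called for a positive difference, or 1.01%, and 150 for a negative one, or 1.44%. Over all 14418 probes that entered the fit, detected on at least 2 arrays, the shares were 1.89% and 2.32%. With arrays scaled by their median in place of quantile normalization, 52 and 394 probes were called, and the positive share of calls was 11.7% in place of 41.2%. The median probe then stood at -0.22. With the size of the difference taken from that median, and the adjusted p still for a difference from 0, 101 and 174 were called. Under either scaling 0 probes were called in the opposite direction. Set against these, LPS alone raised 664 probes (6.36%) and lowered 515 (4.93%) in the labelled knockout, and raised 729 (6.98%) and lowered 474 (4.54%) in wild type. Near the detection threshold, the 70 probes just inside it had a median difference of 0.02, between -1.60 and 1.04. The 66 just outside it had a median of -0.14, between -1.63 and 0.86.

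Read by their brightest probe, 6495 genes had a single symbol. Of these, 68 were called for a positive difference (1.05%) and 79 for a negative one (1.22%). The LPS effects of all 147, taken between any pair of arrays, did not overlap between genotypes. The calls were made on the same arrays, so this is a description of the called genes and no separate support. For most genes LPS moved expression by like amounts: 5424 genes, or 83.5%, had a difference within 0.5 of 0. Only 6 called genes reached 2 in size, namely Upp1, Tbc1d2, Clec7a and Paqr7 on the positive side and Bcl6 and Plau on the negative side.

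**Figure D1:**
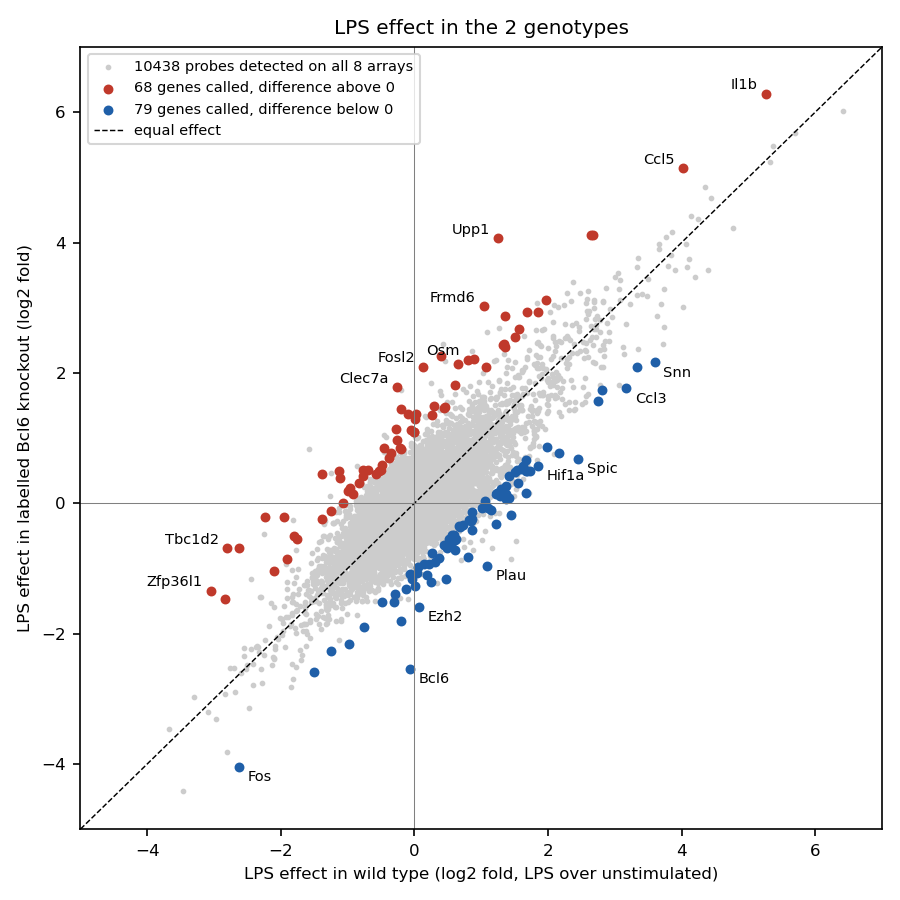
LPS effect (log2 fold, LPS over unstimulated) in the labelled knockout on the vertical axis against that in wild type on the horizontal axis. Grey points are the 10438 probes, called probes that do not represent a gene included, red and blue points the 68 and 79 genes called above and below 0, and the dashed line marks equal effects. Most probes follow the line, with Upp1 farthest above it and Bcl6 farthest below.

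The 147 genes fall into classes by where LPS itself was called at 2-fold, as a description, since these calls use the same arrays. Among genes measured, 6.30% were called up by LPS and 5.80% down in the labelled knockout, and 6.62% up and 5.31% down in wild type. In 30 genes LPS gave a rise in wild type without a call in the labelled knockout. In 19 genes LPS gave a rise in the labelled knockout without a call in wild type. In 16 genes it gave a fall in the labelled knockout without a call in wild type, and in 14 a fall in wild type without one in the labelled knockout. Both genotypes rose in 16 genes with a positive and 5 with a negative difference, and both fell in 3 of each. The largest class was the 41 genes in which neither effect was called, 16 positive and 25 negative. On every pair of arrays 28 genes went down in the labelled knockout and up in wild type, and 19 went up in the labelled knockout and down in wild type. Choosing genes by the size of the difference itself favours effects of opposite sign. The share over all genes was not counted, so nothing is read from these counts.

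**Figure D2:**
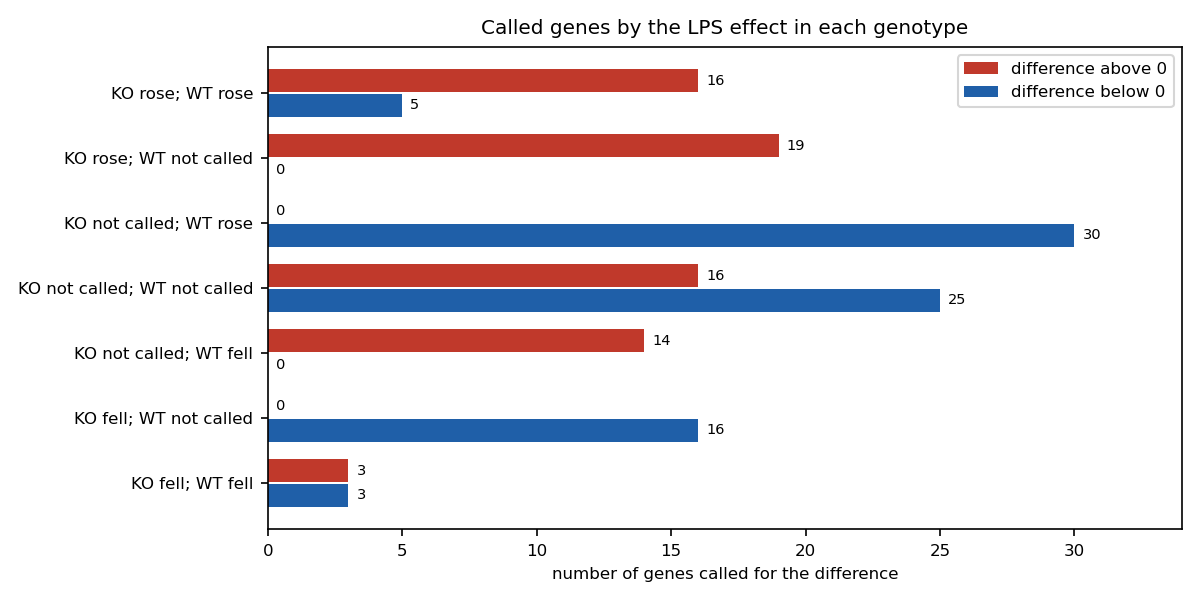
Number of called genes (horizontal axis) in each class of LPS effect (vertical axis), KO standing for the labelled knockout and WT for wild type. Red bars count positive and blue bars negative differences, and the longest single bar is the 30 genes that rose in wild type without a call in the labelled knockout.

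The largest positive difference was that of Upp1, the uridine phosphorylase that splits uridine into uracil and ribose phosphate. Its probe read 10.43 and 10.73 in labelled-knockout cells with LPS and 6.60 and 6.44 in unstimulated labelled-knockout cells, against 7.35 and 7.63 in wild-type cells with LPS and 6.31 and 6.17 in unstimulated wild-type cells. Unstimulated cells of both genotypes were close, and the LPS-treated labelled knockout stood above all other arrays. LPS raised Upp1 by 4.06 ± 0.15 in the labelled knockout and 1.26 ± 0.15 in wild type, a difference of 2.81 ± 0.22 (adjusted p = 0.000381). Frmd6, a FERM-domain protein linked to Hippo signalling, had the same shape. It read 10.02 and 9.77 in labelled-knockout cells with LPS and 6.82 and 6.92 in unstimulated labelled-knockout cells, against 8.48 and 8.24 in wild-type cells with LPS and 7.33 and 7.31 in unstimulated wild-type cells. The LPS effect was 3.03 ± 0.13 in the labelled knockout and 1.04 ± 0.13 in wild type, and the difference was 1.99 ± 0.19 (adjusted p = 0.00108). Lcn2, the siderophore-binding lipocalin of neutrophils and activated macrophages, differed more between genotypes without LPS than with it. Its values were 11.51 and 11.57 in labelled-knockout cells with LPS and 8.54 and 8.81 in unstimulated labelled-knockout cells, against 11.92 and 11.96 in wild-type cells with LPS and 10.60 and 10.56 in unstimulated wild-type cells. The unstimulated labelled knockout was the lowest group, and the difference of 1.51 ± 0.17 (adjusted p = 0.00255) went with LPS effects of 2.87 in the labelled knockout and 1.36 in wild type.

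Cytokine genes with a positive difference reached it from different starting levels. Osm, oncostatin M of the interleukin-6 family, read 13.45 and 13.28 in labelled-knockout cells with LPS and 11.23 and 11.09 in unstimulated labelled-knockout cells, against 9.74 and 9.49 in wild-type cells with LPS and 8.84 and 8.80 in unstimulated wild-type cells. All 4 labelled-knockout arrays were above all wild-type arrays, and LPS widened the gap. LPS raised Osm by 2.21 ± 0.13 in the labelled knockout, and its effect in wild type was 0.79 ± 0.13, below the 2-fold limit, for a difference of 1.41 ± 0.18 (adjusted p = 0.00415). Il1b, which encodes the pro-inflammatory cytokine interleukin-1 beta, rose strongly in both genotypes. Its probe read 15.86 and 15.96 in labelled-knockout cells with LPS and 9.62 and 9.63 in unstimulated labelled-knockout cells, against 11.47 and 11.43 in wild-type cells with LPS and 6.34 and 6.04 in unstimulated wild-type cells. The LPS effects were 6.29 ± 0.13 in the labelled knockout and 5.26 ± 0.13 in wild type, and the difference was 1.03 ± 0.18 (adjusted p = 0.014). Raw Il1b signals of 52028 and 57170 in the labelled knockout with LPS came near the brightest probe of those arrays, at 64927 and 62618, so the top of this range was close. Without background correction the Il1b difference was 2.06, and on the authors' processed values 1.87. With median scaling it was 0.83 and with no normalization between arrays 0.79, both under the 2-fold limit and not called. Ccl5, a chemokine for T cells and monocytes, was -0.17 from wild type under LPS and -1.28 from it without LPS. It read 14.76 and 14.62 in labelled-knockout cells with LPS and 9.58 and 9.54 in unstimulated labelled-knockout cells, against 14.91 and 14.81 in wild-type cells with LPS and 10.94 and 10.73 in unstimulated wild-type cells. Its difference of 1.11 ± 0.17 (adjusted p = 0.00824) came with LPS effects of 5.14 in the labelled knockout and 4.02 in wild type.

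Several receptors rose with LPS in the labelled knockout without a call in wild type. Clec7a, or Dectin-1, the receptor for fungal beta-glucan, read 9.65 and 9.72 in labelled-knockout cells with LPS and 8.12 and 7.68 in unstimulated labelled-knockout cells, against 8.51 and 8.55 in wild-type cells with LPS and 8.66 and 8.93 in unstimulated wild-type cells. Under LPS the labelled knockout was above wild type and without LPS below it, so the order of the genotypes turned. The LPS effect was 1.78 ± 0.16 in the labelled knockout and -0.26 ± 0.16 in wild type, and the difference was 2.05 ± 0.23 (adjusted p = 0.00237). A further Clec7a probe stood at 0.76 and was not called. Il10ra, the ligand-binding chain of the receptor for the anti-inflammatory cytokine interleukin-10, read 9.75 and 9.82 in labelled-knockout cells with LPS and 8.27 and 8.40 in unstimulated labelled-knockout cells, against 10.61 and 10.27 in wild-type cells with LPS and 10.68 and 10.58 in unstimulated wild-type cells. The unstimulated labelled knockout was far below the other 3 groups, and LPS brought it nearer to wild type, with a difference of 1.64 ± 0.20 (adjusted p = 0.00294). Csf3r, the receptor for granulocyte colony-stimulating factor, had LPS effects of 1.29 in the labelled knockout and 0.00 in wild type and a difference of 1.29 ± 0.25 (adjusted p = 0.0187). A further Csf3r probe stood at 1.94 and was called. Flrt3, a leucine-rich repeat adhesion protein, read 10.76 and 10.86 in labelled-knockout cells with LPS and 8.67 and 8.43 in unstimulated labelled-knockout cells, against 8.49 and 8.47 in wild-type cells with LPS and 8.02 and 8.14 in unstimulated wild-type cells. Only the LPS-treated labelled knockout stood apart, and the difference was 1.85 ± 0.17 (adjusted p = 0.00104).

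Among AP-1 factors the members moved in opposite directions. Fosl2, which encodes the AP-1 subunit Fra-2, read 11.28 and 11.27 in labelled-knockout cells with LPS and 9.14 and 9.22 in unstimulated labelled-knockout cells, against 8.99 and 8.87 in wild-type cells with LPS and 8.73 and 8.85 in unstimulated wild-type cells. The LPS-treated labelled knockout was the high group, and the other 3 lay between 8.73 and 9.22. Its LPS effect was 2.10 ± 0.11 in the labelled knockout and 0.13 ± 0.11 in wild type, a difference of 1.96 ± 0.16 (adjusted p = 0.000471). Fos, the subunit c-Fos, fell in both genotypes and further in the labelled knockout. It read 6.97 and 7.17 in labelled-knockout cells with LPS and 11.16 and 11.07 in unstimulated labelled-knockout cells, against 8.87 and 8.998 in wild-type cells with LPS and 11.56 and 11.57 in unstimulated wild-type cells. The LPS effects of -4.05 ± 0.12 in the labelled knockout and -2.63 ± 0.12 in wild type gave a difference of -1.42 ± 0.17 (adjusted p = 0.00296). Junb, a Jun-family partner of both, rose by 2.08 in the labelled knockout and 1.07 in wild type, and its difference was 1.02 ± 0.19 (adjusted p = 0.0177). Of 28 listed AP-1 and immediate-early factors 18 were measured, 3 of them called positive and 1 negative, with a median difference of 0.22. Over all genes 2.26% were called. The list was chosen with earlier results known, so nothing is read from that count. The third positive of this list was Klf2, a Krüppel-like factor that restrains inflammatory activation, at 1.14 ± 0.20 (adjusted p = 0.0143), with LPS effects of -0.24 in the labelled knockout and -1.38 in wild type.

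**Figure D3:**
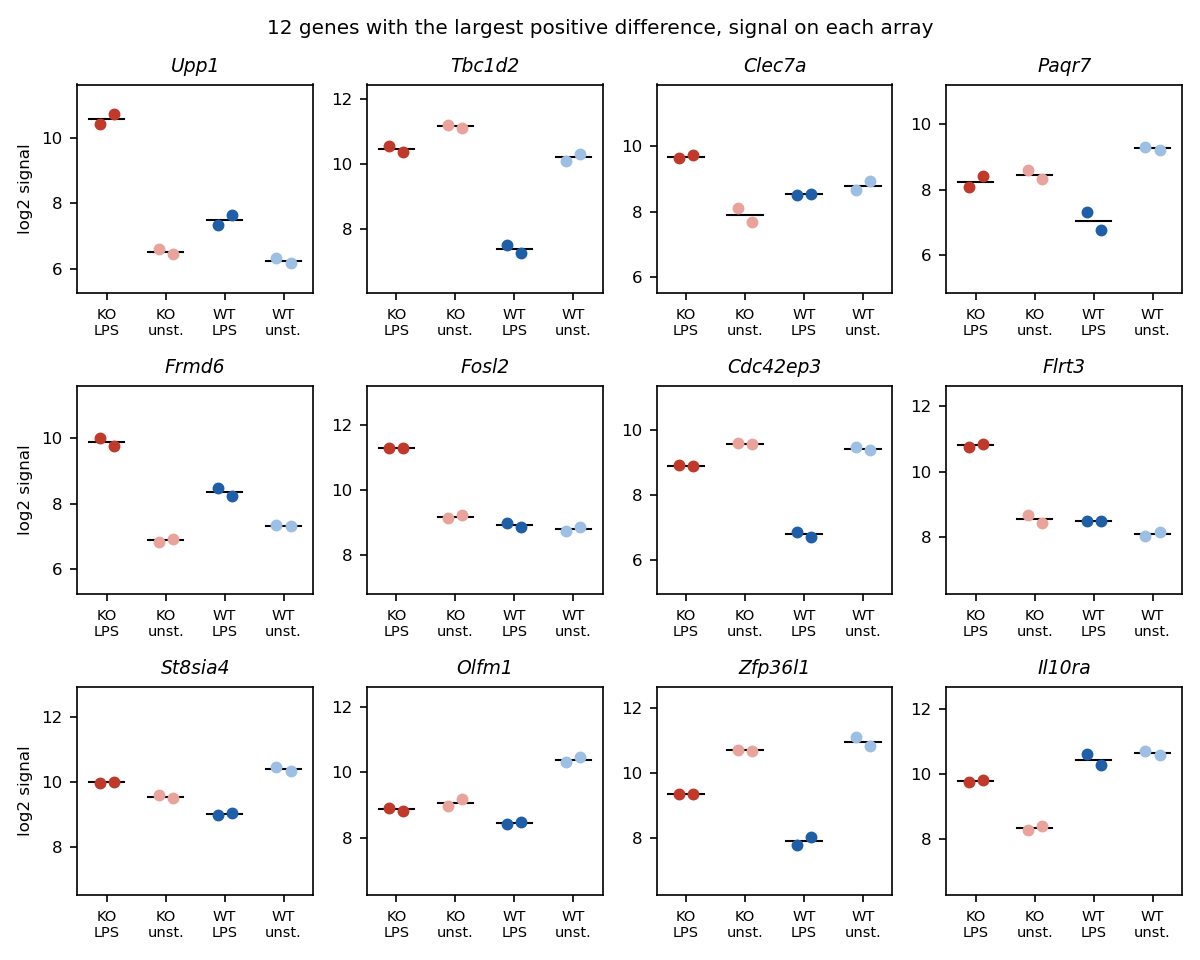
Signal (log2, vertical axis) on each array for the 12 genes with the largest positive difference, by group along the horizontal axis, KO standing for the labelled knockout, WT for wild type and unst. for unstimulated. Points are single arrays and bars the mean of 2, in dark and light red for the labelled knockout with and without LPS and in dark and light blue for wild type. Upp1 stands high in 1 group, and Tbc1d2 and Cdc42ep3 stand low in wild type with LPS.

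A further 14 genes fell with LPS in wild type and were not called in the labelled knockout. Tbc1d2, a GTPase-activating protein for Rab7 on late endosomes, read 10.55 and 10.36 in labelled-knockout cells with LPS and 11.19 and 11.10 in unstimulated labelled-knockout cells, against 7.51 and 7.28 in wild-type cells with LPS and 10.10 and 10.30 in unstimulated wild-type cells. The LPS-treated wild type was the low group, and the other 3 lay between 10.10 and 11.19. LPS effects of -0.69 ± 0.14 in the labelled knockout and -2.80 ± 0.14 in wild type gave a difference of 2.11 ± 0.19 (adjusted p = 0.000932). Cdc42ep3, an effector of the GTPase Cdc42, read 8.92 and 8.88 in labelled-knockout cells with LPS and 9.60 and 9.56 in unstimulated labelled-knockout cells, against 6.86 and 6.73 in wild-type cells with LPS and 9.46 and 9.38 in unstimulated wild-type cells. Again wild type with LPS was the only low group, with a difference of 1.94 ± 0.16 (adjusted p = 0.000463). Paqr7, a membrane progestin receptor, had LPS effects of -0.21 in the labelled knockout and -2.24 in wild type and a difference of 2.03 ± 0.28 (adjusted p = 0.00547). For St8sia4, a sialyltransferase that makes polysialic acid, the difference was 1.83 ± 0.16 (adjusted p = 0.000618), and a further probe gave 2.41. Olfm1, a secreted olfactomedin, gave 1.74 ± 0.18 (adjusted p = 0.00151), and its 2 further probes gave 1.56 and 1.06, both called.

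Fcgr3, a low-affinity activating receptor for IgG, belongs to the same class. It read 13.64 and 13.67 in labelled-knockout cells with LPS and 14.19 and 14.13 in unstimulated labelled-knockout cells, against 10.09 and 9.93 in wild-type cells with LPS and 11.84 and 11.79 in unstimulated wild-type cells. All labelled-knockout arrays exceeded all wild-type arrays, and the LPS effect was -0.51 ± 0.11 in the labelled knockout and -1.81 ± 0.11 in wild type, called in wild type only. The difference was 1.30 ± 0.16 (adjusted p = 0.00305). Zfp36l1, an RNA-binding protein that promotes the decay of AU-rich transcripts, fell in both genotypes. It read 9.34 and 9.35 in labelled-knockout cells with LPS and 10.69 and 10.68 in unstimulated labelled-knockout cells, against 7.79 and 8.03 in wild-type cells with LPS and 11.10 and 10.81 in unstimulated wild-type cells. The fall was smaller in the labelled knockout, with LPS effects of -1.34 ± 0.14 in the labelled knockout and -3.04 ± 0.14 in wild type and a difference of 1.70 ± 0.19 (adjusted p = 0.00237). P2ry6, a receptor for extracellular UDP, had the same shape, with effects of -1.46 in the labelled knockout and -2.83 in wild type and a difference of 1.37 ± 0.20 (adjusted p = 0.00644).

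Plau, the urokinase plasminogen activator, had the second most negative difference and led the genes that rose in wild type without a call in the labelled knockout. Plau read 11.31 and 11.23 in labelled-knockout cells with LPS and 12.21 and 12.26 in unstimulated labelled-knockout cells, against 8.87 and 8.82 in wild-type cells with LPS and 7.82 and 7.68 in unstimulated wild-type cells. Every labelled-knockout array was above every wild-type array, and LPS narrowed the gap to 2.43, against 4.48 without LPS. The LPS effect was -0.96 ± 0.11 in the labelled knockout and 1.09 ± 0.11 in wild type, and the difference was -2.05 ± 0.16 (adjusted p = 0.000381). Mmp13, a collagenase of the matrix metalloproteinase family, was also higher in the labelled knockout in both states. It read 14.36 and 14.17 in labelled-knockout cells with LPS and 12.08 and 12.26 in unstimulated labelled-knockout cells, against 11.87 and 12.01 in wild-type cells with LPS and 8.57 and 8.66 in unstimulated wild-type cells. LPS raised it by 2.09 ± 0.13 in the labelled knockout and 3.33 ± 0.13 in wild type, a difference of -1.23 ± 0.18 (adjusted p = 0.00646). Of 25 listed matrix protease and plasminogen genes 10 were measured, these 2 were called, and the median of the list was 0.22. Over all genes 2.26% were called, and nothing is read from the count in a list chosen with earlier results known.

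The transcription factor Spic, which macrophages of the splenic red pulp need for their development, rose with LPS in wild type. It read 7.38 and 7.32 in labelled-knockout cells with LPS and 6.47 and 6.86 in unstimulated labelled-knockout cells, against 9.46 and 9.38 in wild-type cells with LPS and 6.86 and 7.08 in unstimulated wild-type cells. Wild type with LPS was the only high group. The LPS effect was 0.69 ± 0.15 in the labelled knockout and 2.45 ± 0.15 in wild type, and the difference was -1.77 ± 0.21 (adjusted p = 0.00305). Hif1a, the oxygen-regulated factor that drives glycolytic genes, read 8.89 and 8.98 in labelled-knockout cells with LPS and 8.46 and 8.26 in unstimulated labelled-knockout cells, against 9.44 and 9.66 in wild-type cells with LPS and 7.75 and 7.64 in unstimulated wild-type cells. The order of the genotypes turned, with the labelled knockout above wild type without LPS and below it with LPS. Its LPS effect was 0.58 ± 0.13 in the labelled knockout and 1.86 ± 0.13 in wild type, with a difference of -1.28 ± 0.18 (adjusted p = 0.00623). Hif1a was the 1 called gene of 16 macrophage transcription factors and of 17 glycolysis genes, whose median differences were 0.28 and -0.15. Over all genes 2.26% were called.

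Other genes that rose in wild type without a call in the labelled knockout include several membrane proteins. Tspan3, a tetraspanin, read 9.80 and 9.47 in labelled-knockout cells with LPS and 9.92 and 9.71 in unstimulated labelled-knockout cells, against 11.18 and 11.37 in wild-type cells with LPS and 9.77 and 9.89 in unstimulated wild-type cells. Wild type with LPS was again the only high group, with a difference of -1.62 ± 0.21 (adjusted p = 0.00416). Cav2, a caveolin of membrane invaginations, read 9.20 and 9.02 in labelled-knockout cells with LPS and 9.38 and 9.49 in unstimulated labelled-knockout cells, against 9.56 and 9.65 in wild-type cells with LPS and 8.43 and 8.34 in unstimulated wild-type cells. Here unstimulated wild type was the low group, and the difference was -1.54 ± 0.17 (adjusted p = 0.00196). Atp2c1, a calcium and manganese pump of the Golgi, gave -1.51 ± 0.21 (adjusted p = 0.00547), and its further probe stood at -0.69 and was not called. Clec5a, a receptor that signals through the adaptor Dap12, had LPS effects of 0.49 in the labelled knockout and 1.68 in wild type and a difference of -1.19 ± 0.16 (adjusted p = 0.00424). Its 3 further probes lay between -0.87 and -0.30, and none was called. Chac1, a glutathione-degrading enzyme induced by the unfolded protein response, gave -1.40 ± 0.18 (adjusted p = 0.00428). Slc7a8, a transporter of neutral amino acids, gave -1.02 ± 0.19 (adjusted p = 0.0166), and its further probe stood at -0.59 and was not called.

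Bcl6 belongs to a class of 16 genes that fell with LPS in the labelled knockout without a call in wild type. Ezh2, the histone H3 lysine 27 methyltransferase of Polycomb repressive complex 2, read 6.22 and 6.20 in labelled-knockout cells with LPS and 7.82 and 7.77 in unstimulated labelled-knockout cells, against 6.86 and 6.65 in wild-type cells with LPS and 6.82 and 6.55 in unstimulated wild-type cells. The unstimulated labelled knockout was the highest group and the LPS-treated labelled knockout the lowest, as for Bcl6. The LPS effect was -1.59 ± 0.13 in the labelled knockout and 0.07 ± 0.13 in wild type, and the difference was -1.66 ± 0.19 (adjusted p = 0.00237). Bcl2, which blocks mitochondrial cell death, read 6.43 and 5.93 in labelled-knockout cells with LPS and 7.96 and 8.02 in unstimulated labelled-knockout cells, against 6.78 and 6.86 in wild-type cells with LPS and 6.96 and 7.09 in unstimulated wild-type cells. The highest and the lowest group were again those of Bcl6, and the difference was -1.60 ± 0.23 (adjusted p = 0.00626). B4galt6, a lactosylceramide synthase, read 6.23 and 6.54 in labelled-knockout cells with LPS and 7.54 and 7.54 in unstimulated labelled-knockout cells, against 8.38 and 8.12 in wild-type cells with LPS and 7.89 and 7.67 in unstimulated wild-type cells. Here the LPS-treated labelled knockout was low and the other 3 groups lay between 7.54 and 8.38, with a difference of -1.62 ± 0.21 (adjusted p = 0.00427). Rnf128, the ubiquitin ligase known as GRAIL, gave -1.45 ± 0.31 (adjusted p = 0.0287), with labelled-knockout LPS arrays of 6.39 and 7.08. Ezh2, Bcl2, B4galt6 and Rnf128 were dim, and without background correction their differences were -0.93, -0.92, -0.97 and -0.89, each under the 2-fold limit.

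**Figure D4:**
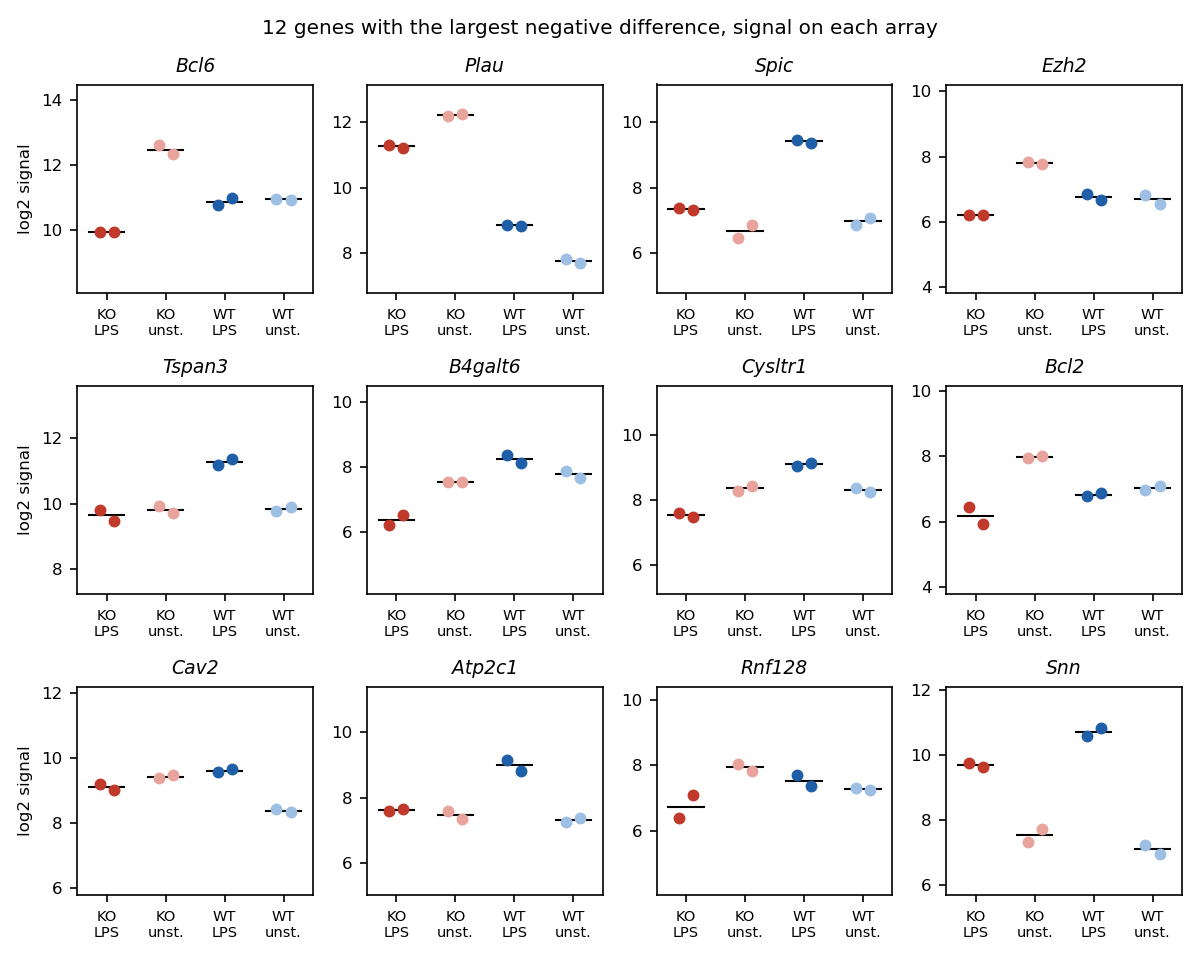
Signal (log2, vertical axis) on each array for the 12 genes with the largest negative difference, in the 4 groups along the horizontal axis, KO standing for the labelled knockout, WT for wild type and unst. for unstimulated. Points are single arrays and bars the mean of 2. Bcl6, Ezh2 and Bcl2 are highest in the unstimulated labelled knockout, and Spic, Tspan3 and Atp2c1 are high in wild type with LPS alone.

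Snn, which encodes stannin, a small membrane protein, rose in both genotypes and by less in the labelled knockout. It read 9.77 and 9.65 in labelled-knockout cells with LPS and 7.35 and 7.74 in unstimulated labelled-knockout cells, against 10.57 and 10.83 in wild-type cells with LPS and 7.23 and 6.98 in unstimulated wild-type cells. The LPS effects were 2.17 ± 0.17 in the labelled knockout and 3.60 ± 0.17 in wild type, and the difference was -1.43 ± 0.24 (adjusted p = 0.0108). Neither LPS effect was called in 41 genes. Effects each under 2-fold can differ by 1 or more only if their signs are opposite, so that pattern follows from the limits used. Cysltr1, a receptor for cysteinyl leukotrienes, read 7.59 and 7.48 in labelled-knockout cells with LPS and 8.28 and 8.44 in unstimulated labelled-knockout cells, against 9.05 and 9.14 in wild-type cells with LPS and 8.36 and 8.24 in unstimulated wild-type cells. LPS effects of -0.82 ± 0.12 in the labelled knockout and 0.80 ± 0.12 in wild type were each under 2-fold, and their difference was -1.62 ± 0.17 (adjusted p = 0.00159). Adss, which encodes an enzyme of AMP synthesis, gave -1.33 ± 0.29 (adjusted p = 0.0308), with labelled-knockout LPS arrays of 7.68 and 8.19. Fam131b, a dim probe of a gene whose role is not described here, gave 1.30 ± 0.16 (adjusted p = 0.00335), and 0.61 without background correction.

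The CC chemokines split. Of 13 listed, 5 were measured, 1 called positive and 2 negative, where 2.26% of all genes were called. The list was chosen with earlier results known, so nothing is read from that count. Ccl3, or macrophage inflammatory protein 1 alpha, read 15.96 and 15.93 in labelled-knockout cells with LPS and 14.17 and 14.19 in unstimulated labelled-knockout cells, against 15.77 and 15.93 in wild-type cells with LPS and 12.63 and 12.72 in unstimulated wild-type cells. LPS brought both genotypes to like levels, and the unstimulated labelled knockout started 1.50 above wild type. The LPS effects of 1.77 ± 0.11 in the labelled knockout and 3.17 ± 0.11 in wild type differed by -1.40 ± 0.16 (adjusted p = 0.00237). Ccl4, its close relative, gave LPS effects of 0.87 in the labelled knockout and 1.99 in wild type and a difference of -1.12 ± 0.21 (adjusted p = 0.0168), while a further Ccl4 probe gave -0.10. Raw signals of Ccl4 with LPS were 57588 and 48637 in the labelled knockout and 60248 and 44907 in wild type. Raw Ccl3 signals of 61010 and 54550 in the labelled knockout and of 61968 and 64302 in wild type with LPS stood near the brightest probe of each array, which lay between 62618 and 68623. Whether the scanner's range held the Ccl3 and Ccl4 values down was not tested, and their folds are given as fitted. Of 13 CXC chemokines 6 were measured and 0 called, with Cxcl10 at 0.50 (adjusted p = 0.234), Cxcl14 at 0.39 (adjusted p = 0.258) and Cxcl1 at -0.39 (adjusted p = 0.146). At the 2.26% of all genes fewer than 1 call would fall among 6.

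Of 52 listed interferon-stimulated genes 40 were measured, 27 of them called up by LPS in the labelled knockout, 32 in wild type and 25 in both. Over all genes LPS was called up for 6.30% in the labelled knockout and 6.62% in wild type. For the difference 0 were called positive and 2 negative, against 1.05% and 1.22% of all genes. Of the 40, 28 stood below 0, against 3267 of 6495 over all genes. The median was -0.18, against -0.003 over all genes. The list was chosen with earlier results known, so nothing is read from these counts. Usp18, the protease that removes Isg15, read 13.09 and 13.05 in labelled-knockout cells with LPS and 11.51 and 11.50 in unstimulated labelled-knockout cells, against 13.35 and 13.44 in wild-type cells with LPS and 10.58 and 10.70 in unstimulated wild-type cells. The gap between genotypes was -0.33 under LPS, against 0.86 without it, and the difference was -1.19 ± 0.15 (adjusted p = 0.0041), with a further probe at -1.26. Dhx58, the helicase Lgp2, read 9.78 and 9.68 in labelled-knockout cells with LPS and 9.12 and 9.20 in unstimulated labelled-knockout cells, against 11.32 and 11.14 in wild-type cells with LPS and 9.62 and 9.60 in unstimulated wild-type cells. Wild type with LPS was the high group, and the difference was -1.05 ± 0.16 (adjusted p = 0.00829), with further probes at -0.39 and -0.80 that were not called. The GBP and IRG GTPases had 6 of 15 measured, 0 called and a median of -0.18, with Irgm1 at -0.52 (adjusted p = 0.152) and Gbp3 at -0.46 (adjusted p = 0.116). Gbp3 itself had LPS effects of 3.62 in the labelled knockout and 4.08 in wild type. At the 2.26% of all genes called for the difference, a list of 6 would hold 0 calls more often than not.

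In 7 lists of signalling, cytokine and receptor genes, 10 of 128 measured genes were called for the difference, or 7.81%, against 2.26% of all genes. The lists were chosen with earlier results known, so nothing is read from that share. Of 35 NF-kappaB family and feedback genes 27 were measured, and only Map3k8, the kinase Tpl2, was called, at 1.10 ± 0.19 (adjusted p = 0.0129). Both genotypes were called up by LPS for Map3k8, with effects of 2.42 in the labelled knockout and 1.32 in wild type. Toll-like receptor signalling had 27 of 34 measured and 0 called, with Map3k7 at 0.81 (adjusted p = 0.0277) and Tlr8 at -0.74 (adjusted p = 0.114). At 2.26% fewer than 1 call would fall in a list of that size. The SOCS and MAP kinase phosphatase list had 13 of 22 measured, and Zfp36l1 was the 1 called. Inflammatory cytokines had 11 of 25 measured, with Il1b and Osm called, and cytokine receptors 18 of 36, with Il10ra and Csf3r called. Phagocytic and scavenger receptors had 21 of 31 measured, with Clec7a and Fcgr3 called positive and Clec5a negative. Effector enzymes had 11 of 26 measured, with Lcn2 called. The medians of these 7 lists lay between 0.052 and 0.19.

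In the lists of antigen presentation 0 of 29 measured genes were called, and at the 2.26% of all genes fewer than 1 call would fall in lists of that size. The 16 of 19 MHC class I and loading genes had a median of -0.17, with Calr, a chaperone of class I assembly, at -0.97 (adjusted p = 0.02) and Nlrc5, the class I transactivator, at -0.77 (adjusted p = 0.0264). Both passed on adjusted p and missed the 2-fold limit. The 13 of 19 class II and costimulation genes had a median of 0.24, with the protease Ctss at 0.86 (adjusted p = 0.0257) and the costimulator Cd86 at -0.72 (adjusted p = 0.0413). Complement had 7 of 16 measured and 0 called, with Cr1l at -0.68 (adjusted p = 0.0983) and C1qb at 0.40 (adjusted p = 0.201). At 2.26% fewer than 1 call would fall in the complement list, or in the lysosomal list that follows. Lysosomal proteins had 26 of 35 measured and 0 called, with Ctsa at 0.90 (adjusted p = 0.0307) by its brightest probe. Its 4 further probes lay between -0.66 and 0.03, so the probes of Ctsa disagree.

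In 6 metabolic, proteasome and stress lists, 2 of 112 measured genes were called, or 1.79%, a share near the 2.26% of all genes. Respiratory chain subunits had 28 of 33 measured, 0 called and a median of 0.18, with 24 above 0, against 3228 of 6495 over all genes. Sdhd, a succinate dehydrogenase subunit, stood at 0.75 (adjusted p = 0.025) and Cox4i1 of cytochrome c oxidase at 0.50 (adjusted p = 0.0968). Cholesterol synthesis had 17 of 22 measured and 0 called, with Insig1, which holds back sterol-regulated transcription, at -0.90 (adjusted p = 0.0108) by its brightest probe and Nsdhl at -0.68 (adjusted p = 0.11). Further Insig1 probes stood at -1.58 (adjusted p = 0.0544) and 0.32 (adjusted p = 0.333), so that its probes disagree. The LXR and PPAR lipid list had 12 of 25 measured and 0 called, with Nr1h3, the receptor LXR alpha, at -0.76 (adjusted p = 0.0498) and Ch25h, which makes an oxysterol, at 0.72 (adjusted p = 0.0414). Amino acid and polyamine genes had 12 of 23 measured and Slc7a8 called, and the unfolded protein response 17 of 21 with Chac1 called. Proteasome subunits had 26 of 31 measured, 0 called and a median of -0.009, with Psmd8 at 0.78 (adjusted p = 0.099) and Psmb5 at 0.76 (adjusted p = 0.0383). Relative to all genes the proteasome median was -0.006, and 0.08 under median scaling.

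Cell cycle and DNA replication genes had 34 of 53 measured and 0 called. At the 2.26% of all genes that were called, fewer than 1 call would fall in a list of that size. LPS lowered 14 of the 34 in the labelled knockout and 8 in wild type, where it lowered 5.80% and 5.31% of all genes. Of the 34 differences 26 were below 0, against 3267 of 6495 over all genes, and the median was -0.16. The list was chosen with earlier results known, so nothing is read from these counts. Ccnd1, which encodes cyclin D1, read 6.997 and 7.005 in labelled-knockout cells with LPS and 11.33 and 11.52 in unstimulated labelled-knockout cells, against 6.45 and 6.72 in wild-type cells with LPS and 10.10 and 9.99 in unstimulated wild-type cells. It fell steeply in both genotypes, and its difference of -0.96 ± 0.19 (adjusted p = 0.0192) was short of 2-fold. Gins1 of the replicative helicase stood at -0.63 (adjusted p = 0.446), with labelled-knockout LPS arrays of 6.54 and 7.75. Bcl6's corepressors and relatives had 12 of 22 measured, and Bcl6 itself was the 1 called. Of 16 known B-cell targets that Bcl6 represses, 8 were measured, and Ccl3 was the 1 called, in the negative direction. Their median of -0.08 was -0.07 relative to all genes, and 0.015 under median scaling.

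**Figure D5:**
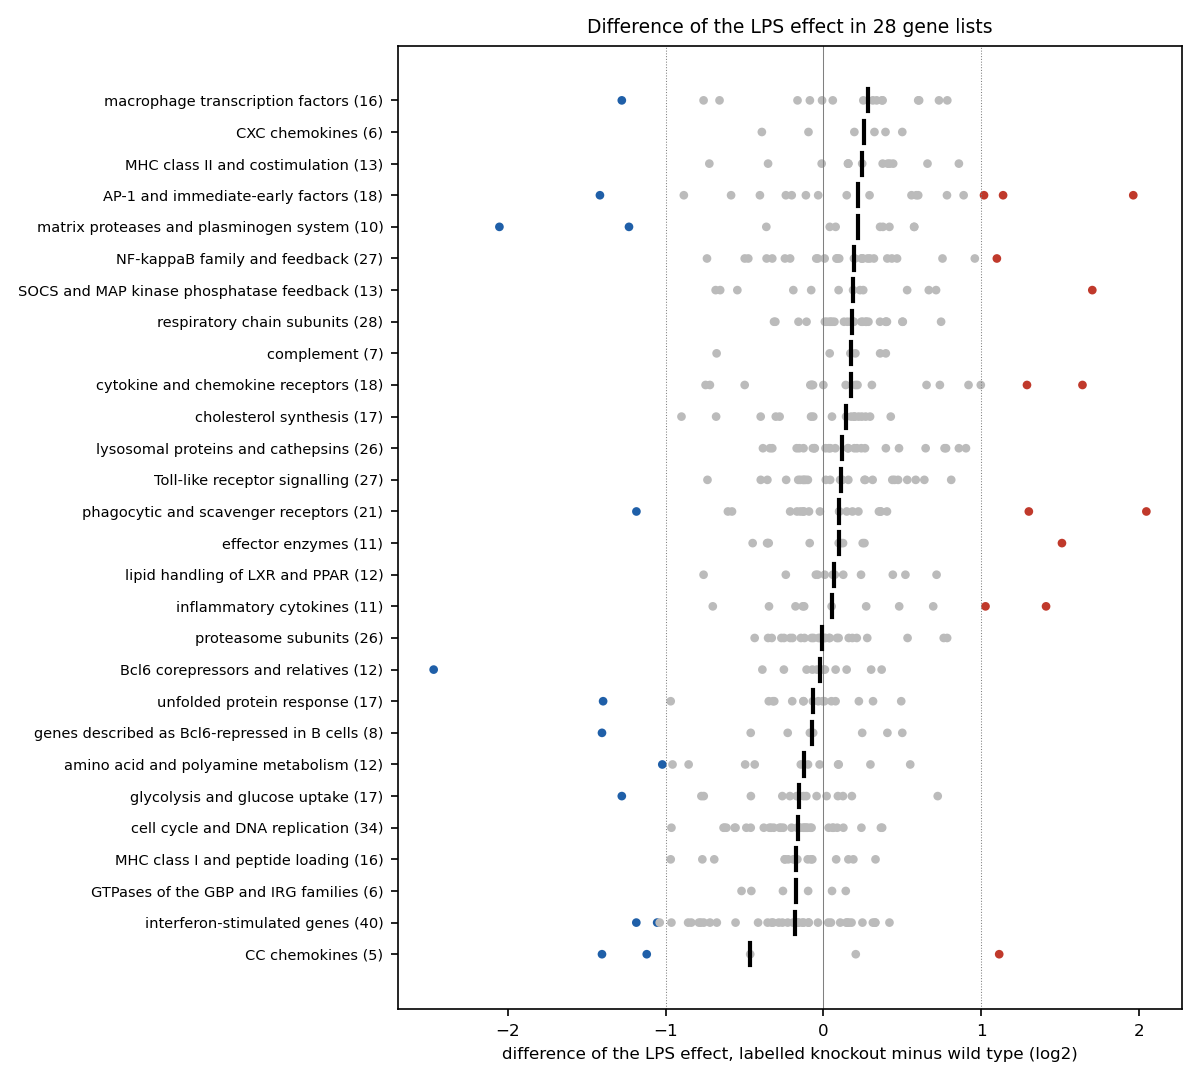
Difference of the LPS effect (log2, labelled knockout minus wild type, horizontal axis) for the genes of 28 lists (vertical axis, measured genes in brackets), ordered by their median. Red and blue points are genes called above and below 0, grey points genes not called, black bars medians and dotted lines the 2-fold limit. The medians lie close to 0, with CC chemokines lowest at -0.46 and macrophage transcription factors highest at 0.28.

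The same difference can be read as a change in the genotype gap. Under LPS 4.43% of the genes measured were higher and 3.33% lower in the labelled knockout, and without LPS 3.34% and 2.76%. Of the 68 genes with a positive difference, 31 were higher in the labelled knockout under LPS without a call in unstimulated cells, among them Upp1, Fosl2 and Cdc42ep3. In 9, among them Il10ra, Lcn2 and Ccl5, the labelled knockout was lower in unstimulated cells without a call under LPS. It was higher in both states in 7, Osm, Il1b and Fcgr3 included, and lower in both in 2. In 19 neither genotype effect was called. Of the 79 genes with a negative difference, the largest class was the 37 in which neither genotype effect was called, and 27 were lower in the labelled knockout under LPS without a call in unstimulated cells, such as Spic and Tspan3. In 11, among them Bcl6, Ezh2 and Ccl3, it was higher in unstimulated cells without a call under LPS, and in 4, Plau and Mmp13 among them, it was higher in both states.

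Of 46 called genes named by rule, 10 lost their call when 1 array was left out, each of them but Dhx58 for more than 1 choice of array. Leaving out an array also leaves fewer arrays to test on. Rnf128, at -1.45, lost it without either array of unstimulated labelled-knockout, wild-type LPS or unstimulated wild-type cells. Its difference then lay between -1.62 and -1.28, with adjusted p between 0.0531 and 0.0982. Adss, at -1.33, lost it without either unstimulated labelled-knockout array, either wild-type LPS array, replicate 1 of labelled-knockout LPS or replicate 1 of unstimulated wild type, at differences between -1.46 and -1.08 and adjusted p between 0.0635 and 0.0975. Csf3r, at 1.29, lost it without either unstimulated labelled-knockout array or replicate 2 of unstimulated wild type, at 1.34, 1.24 and 1.21 with adjusted p of 0.0548, 0.0709 and 0.0654. Ccl4, at -1.12, lost it without either unstimulated labelled-knockout array, wild-type LPS replicate 1 or unstimulated wild-type replicate 2, at differences between -1.14 and -0.95 and adjusted p between 0.0543 and 0.0642.

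The other 6 lay close to the 2-fold limit. Klf2 was 0.98, 1.03, 1.06 and 1.11 without replicate 1 of labelled-knockout LPS, of unstimulated labelled knockout and of wild-type LPS and without replicate 2 of unstimulated wild type. Map3k8 was 1.06, 0.97 and 0.98 without replicate 2 of unstimulated labelled knockout, replicate 1 of wild-type LPS and replicate 2 of unstimulated wild type. Il1b lay between 0.88 and 1.04 without replicate 2 of labelled-knockout LPS, either unstimulated labelled-knockout array, wild-type LPS replicate 2 or unstimulated wild-type replicate 1. Junb lay between 0.87 and 0.96 without replicate 1 of labelled-knockout LPS, replicate 2 of unstimulated labelled knockout, wild-type LPS replicate 2 or unstimulated wild-type replicate 1. Slc7a8 lay between -1.05 and -0.89 without replicate 2 of labelled-knockout LPS, replicate 1 of unstimulated labelled knockout, either wild-type LPS array or replicate 1 of unstimulated wild type. Dhx58 was -0.96 without replicate 1 of wild-type LPS. Where any of these values stayed at 1 or more in size, the adjusted p was between 0.0509 and 0.0573. Without background correction 13 of the 46 fell under the 2-fold limit, which beside those given above were Fos at -0.90, Mmp13 at -0.96, Adss at -0.99, Slc7a8 at -0.935, Csf3r and Junb at 0.97, Klf2 at 0.91 and Map3k8 at 0.86. On the authors' processed values 13 of the 46 also fell under the limit, between -0.99 and 0.975. Of these 11 were among the 13 lost without background correction, and the others were Ccl5 at 0.97 and Dhx58 at -0.99. Of the 147 called genes 38 had further probes, and in 13 of these all probes made the same call. In 3 genes, H2-T10, Hnrnpk and Yme1l1, named here after their values were seen, a further probe pointed the other way, at 0.03, 0.27 and 0.70.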

How the data were processed

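Total RNA of 8 samples was labelled and hybridised to single-colour Illumina mouse arrays, per the labels. The authors deposited an intensity for each probe that is not normalized between arrays, with a detection p-value, and a second table of processed intensity on a linear scale, whose normalization no label describes. The tool GenomeStudio is named in the submitters' processing notes. Depth does not apply to arrays, and their number limits the precision. The tables held 0 columns from other series.

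The deposited raw intensity was background-corrected by the nec function of limma (limma 3.58.1, R 4.3.3, offset 16), and arrays were quantile-normalized on the log2 scale. The 14418 probes with detection p under 0.01 on at least 2 arrays entered 1 limma fit with a mean for each of 4 groups. It had 4 residual and 4.36 prior degrees of freedom. P-values were adjusted by Benjamini-Hochberg over the 14418, and results are given for the 10438 probes detected on all 8 arrays. Of these 9182 had 1 gene symbol and 1256 were unnamed here. Names came from the platform annotation, updated through RefSeq of GRCm38.p6. On simulated data for the 14418 probes the fit recovered 96 of 100 differences of 1.5 and 100 of 100 of 3 (log2), with 14 false calls. Noise was drawn independently for each array from the spread of the fit itself. Background correction, normalization and the spread between mice had no part in it, and smaller differences were not simulated.

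The probes, the 28 lists of genes and the rule that named genes were chosen with earlier results of these data known. That rule took Bcl6, the 12 largest called differences in each direction, the 3 largest in each class of LPS effect and up to 4 genes of each list, passing over clone-like symbols. Replicate numbers did not pair arrays, since same-numbered arrays of different groups deviated from their group means with correlations between -0.04 and 0.02. Alternatives covered background correction, normalization, filters, the authors' values, the prior variance, the replicate block and each array left out.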

Additional observations from a re-analysis of the deposited data

Results flagged for a closer look

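For 46 named genes the LPS effect differed between the labelled knockout and wild type by the test of the difference itself, in limma's fit on 2 technical replicate arrays per group. Each value is the LPS effect in the labelled knockout minus that in wild type, on the log2 scale, and the adjusted p was at most 0.0308. Both genotypes rose with LPS for Upp1 at 2.81, Frmd6 at 1.99, Lcn2 at 1.51, Ccl5 at 1.11, Map3k8 at 1.10, Il1b at 1.03, Junb at 1.02, Usp18 at -1.19, Mmp13 at -1.23, Ccl3 at -1.40 and Snn at -1.43. A rise in the labelled knockout without a call in wild type went with Clec7a at 2.05, Fosl2 at 1.96, Flrt3 at 1.85, Il10ra at 1.64, Osm at 1.41 and Csf3r at 1.29. A fall in wild type without a call in the labelled knockout went with Tbc1d2 at 2.11, Paqr7 at 2.03, Cdc42ep3 at 1.94, St8sia4 at 1.83, Olfm1 at 1.74, Fcgr3 at 1.30 and Klf2 at 1.14. A rise in wild type without a call in the labelled knockout went with Slc7a8 at -1.02, Dhx58 at -1.05, Ccl4 at -1.12, Clec5a at -1.19, Hif1a at -1.28, Chac1 at -1.40, Atp2c1 at -1.51, Cav2 at -1.54, Tspan3 at -1.62, Spic at -1.77 and Plau at -2.05. A fall in the labelled knockout without a call in wild type went with Rnf128 at -1.45, Bcl2 at -1.60, B4galt6 at -1.62, Ezh2 at -1.66 and Bcl6 at -2.47. Both genotypes fell with LPS for Zfp36l1 at 1.70, P2ry6 at 1.37 and Fos at -1.42. Neither LPS effect alone was called for Fam131b at 1.30, Adss at -1.33 and Cysltr1 at -1.62. No cause of these differences was tested.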

How the results depend on the processing

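Under 20 alternatives 0 probes were called in the opposite direction. The 105 positive and 150 negative calls became 53 and 57 without background correction, 77 and 99 with an offset of 50, and 49 and 52 on the authors' processed values. Median scaling gave 52 and 394, and no normalization between arrays 47 and 470. These settings moved the median probe to -0.22 and -0.26. With sizes taken from that median, and the adjusted p still for a difference from 0, they gave 101 and 174 and 99 and 174. The cause was not tested. With 1 probe per gene in the fit, 70 and 79 were called. Counting genes in place of probes gave 68 and 79, and dropping the 2-fold minimum 282 and 413. Leaving out 1 array gave 92 to 110 positive and 118 to 156 negative calls. The numbers do not pair the arrays, and with the replicate block 105 and 145 probes were called. Of 46 called named genes, 29 kept their call in all 20 settings and 10 lost it on leaving out an array. Without background correction 13 lost it and on the authors' values 13, all for falling below 2-fold in size. With median scaling 4 named genes lost their call, and with no normalization between arrays 6, Il1b among them under both. Median scaling and no normalization turned the sign of the medians of the proteasome and Bcl6-repressed lists relative to all genes, and no background correction and the authors' values those of the proteasome and corepressor lists. The other lists of the 28 kept their sign under these 4 settings. Detection limits what is seen: 353 further probes were called, 168 positive and 185 negative, that were not detected on all 8 arrays.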

Other observations

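Some called genes outside the lists, picked here after their values were seen, belong to small families whose members moved apart. The Gadd45 proteins are stress-induced partners of growth arrest and DNA repair. Gadd45b read 11.08 and 10.90 in labelled-knockout cells with LPS and 8.39 and 8.25 without it, against 10.60 and 10.53 in wild-type cells with LPS and 8.94 and 9.08 without it. Its difference was 1.11 ± 0.17 (log2, SE, limma's adjusted p = 0.00842). Gadd45a, at 1.09 ± 0.18, rose in the labelled knockout, with LPS effects of 1.35 in the labelled knockout and 0.27 in wild type, and its further probe stood at 0.76 and was not called. Gadd45g went the other way at -1.13 ± 0.17, with LPS effects of -1.16 in the labelled knockout and -0.04 in wild type. Among receptors for extracellular nucleotides, P2ry14 stood at 1.03, with an uncalled further probe at 0.98, and P2ry13 at -1.19, beside P2ry6 at 1.37.

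Some of the wide genotype gaps moved with LPS. Dab2, an endocytic adaptor, read 13.71 and 13.76 in labelled-knockout cells with LPS and 13.33 and 13.38 without it, against 10.08 and 10.15 in wild-type cells with LPS and 11.31 and 11.15 without it, a difference of 1.503 ± 0.157. Its 2 further probes stood at 1.71, called, and 0.91, not called. Slc40a1, the iron exporter ferroportin, had LPS effects of -0.90 in the labelled knockout and 0.30 in wild type, a difference of -1.20 ± 0.18. Fpr2, a receptor for formylated peptides, rose by 4.11 in the labelled knockout and by 2.67 in wild type and stayed lower in the labelled knockout in both states. The granulocyte marker S100a9 stood at 1.19, with LPS effects of 0.42 in the labelled knockout and -0.77 in wild type, beside the granulocyte sum given above.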
